A study of Saccharomyces cerevisiae with 24 samples.

Results

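The transcripts described here encode the receptors that carry enzymes into the yeast peroxisome: PEX21 (YGR239C, chromosome VII), PEX18 (YHR160C, chromosome VIII), PEX7 (YDR142C, chromosome IV) and PEX5 (YDR244W, chromosome IV). They were found by locus tag in the array tables, where each had 1 probe printed in 2 spots, and they were 4 of the 6256 genes on the array. All 4 passed the intensity filter that 5641 genes passed (90.2%). PEX21 was chosen by its rise in SEF1-VP16 over sef1 in each medium, and the other 3 were added because of the pathway they share with it. The values of PEX21 in SEF1-VP16 and sef1 are therefore given as a description with no test.

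Peroxisomes import folded enzymes through soluble receptors that bind a targeting signal on the cargo in the cytosol, dock at the peroxisomal membrane and are then recycled by ubiquitination and an ATPase complex. Pex5 recognises the common carboxy-terminal signal PTS1. Pex7 recognises the amino-terminal signal PTS2, which few yeast proteins carry, and it works only together with a co-receptor, either Pex18 or Pex21. PEX18 and PEX21 are a duplicated gene pair with partly redundant functions, and cells lacking both do not import the PTS2 enzyme thiolase. In yeast the whole of fatty acid beta-oxidation takes place in the peroxisome, and many of its genes are repressed by glucose.

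The arrays covered 3 haploid MATa strains of the W303 background, all carrying its his3, trp1, ura3, ade2, leu2 and can1 alleles. SEF1-VP16 expresses the zinc cluster factor Sef1 from its own locus fused to the VP16 activation domain, of viral origin, sef1 has SEF1 replaced by the NatMX4 marker, and WT carries the unmodified gene (each strain is 1 named clone). Overnight cultures were brought to 0.2 OD600 per ml, after which the cells grew at 30 °C for 5.5 h in YPGly, the glycerol medium for respiratory growth, or in YPD, the glucose medium for fermentative growth, both supplemented with adenine and tryptophan. Each of the 6 groups had 4 biological replicates, 24 arrays in all. Levels are log2 intensities relative to the 75th percentile of the same array, differences are log2 fold changes ± the standard error of the limma fit, and a call required an adjusted p below 0.05 together with a change of at least 1.5-fold. A change in all cells and a change in some of the cells cannot be told apart in bulk RNA.

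The 75th percentile ran from 5320 to 16182 intensity units, 92% to 98.3% of the probes of an array stood well above background, and saturated spots were absent. SEF1 was well above background on 0 of 8 sef1 arrays and on all 16 arrays of the other strains. Transcripts specific to a cells (STE2, BAR1, MFA1 and MFA2) were well above background on all 24 arrays, whereas the alpha-factor transcripts MF(ALPHA)1 and MF(ALPHA)2 did not reach the intensity minimum of 200 in any group. The other alpha-specific transcripts of the list were well above background on 24 of 24 arrays, with group mean intensities of 583 to 1022 for SAG1 and 118 to 207 for STE3. The arrays lay on 3 slides, and only 2 strain comparisons were made within a slide, namely SEF1-VP16 against sef1 in YPGly, and sef1 against WT in glucose medium. For every other comparison the slide and the group cannot be told apart.

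PEX21, the co-receptor chosen by its rise, stood far above both other strains in SEF1-VP16, in glucose and in glycerol alike. In YPGly its levels were 1.25, 0.91, 0.86 and 0.87 in SEF1-VP16, against −1.5, −1.65, −1.63 and −1.60 in sef1 and −1.58, −1.60, −1.77 and −1.57 in WT. In YPD they were −0.11, −0.31, −0.056 and −0.15 in SEF1-VP16, against −2.80, −2.83, −2.84 and −2.88 in sef1 and −2.95, −2.83, −2.87 and −3.03 in WT. In each medium every SEF1-VP16 array lay above every array of the other strains, while the sef1 and WT arrays overlapped. SEF1-VP16 against sef1 came to 2.57 ± 0.090 in YPGly (5.92-fold) and 2.68 ± 0.058 in YPD (6.4-fold), and SEF1-VP16 against WT to 2.60 ± 0.097 in YPGly (6.07-fold) and 2.76 ± 0.071 in YPD (6.79-fold). The SEF1-VP16 arrays were the same in both pairs of comparisons. The glycerol value against sef1 was measured within 1 slide.

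**Figure D1:**
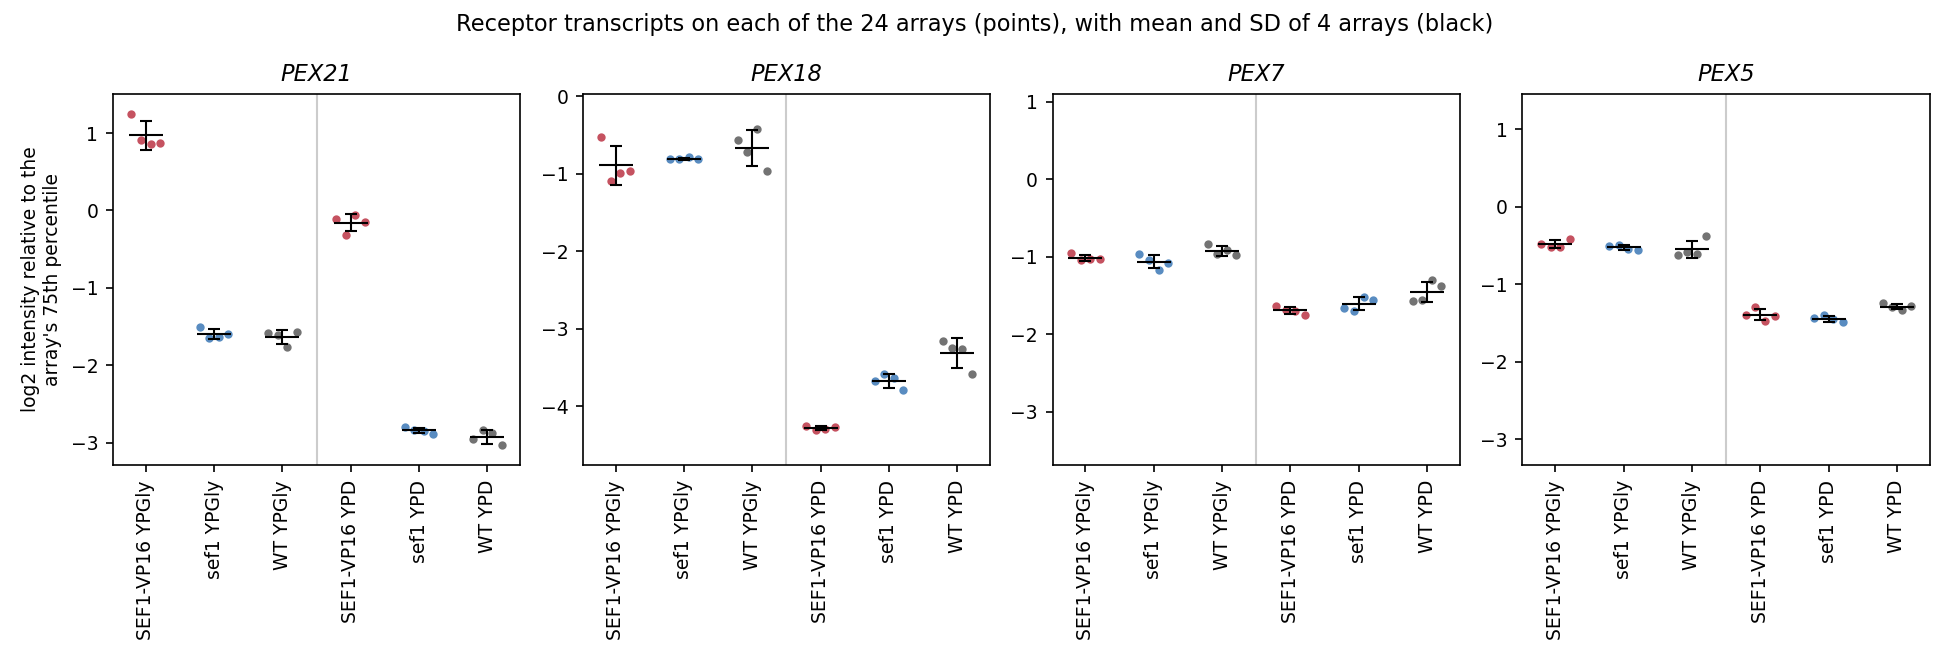
Log2 intensity relative to the array's 75th percentile (vertical axis, own range but equal span in each panel) of PEX21, PEX18, PEX7 and PEX5 in the 6 groups, with each of the 4 arrays of a group as a point and the mean ± SD in black. PEX21 averaged 0.97 in SEF1-VP16 in YPGly and −0.16 in SEF1-VP16 in YPD, above all sef1 and WT arrays, whereas PEX18 in YPD was lowest in SEF1-VP16 (mean −4.28).

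Between sef1 and WT the PEX21 levels overlapped in both media. The difference of sef1 against WT, given with no test, was 0.035 ± 0.068 in YPGly and 0.084 ± 0.057 in YPD. The 1.5-fold minimum of the call is 0.585 on the log2 scale. The YPD value was obtained within 1 slide. Of the other 3 receptors, 0 were called for sef1 against WT in either medium by limma, where 0.798% of all genes tested were called in YPGly and 0.674% in YPD. At an unadjusted p below 0.05 the counts were 0 in YPGly and 2 in YPD (PEX18 and PEX5), and the methods' t-test called 0 in both.

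PEX18, the other PTS2 co-receptor, was lower rather than higher in SEF1-VP16 in glucose. In YPD its levels were −4.26, −4.30, −4.30 and −4.27 in SEF1-VP16, against −3.68, −3.58, −3.64 and −3.79 in sef1 and −3.15, −3.25, −3.27 and −3.59 in WT. The SEF1-VP16 arrays lay below all others, and the lowest WT array fell within the range of sef1. PEX18 was lower in SEF1-VP16, with a difference of −0.61 ± 0.051 against sef1 (1.52-fold, adjusted p = 1.42e-05) and of −0.97 ± 0.087 against WT (1.95-fold, adjusted p = 3.15e-05). The first of these values sits at the 1.5-fold minimum, and without sef1 replicate 2 it was −0.58 and no longer reached it. Both set slides against each other, and no YPD difference of SEF1-VP16 was measured within a slide.

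Among the 3 receptors that could be tested, PEX18 was the 1 called for SEF1-VP16 against sef1 in YPD, where 3.14% of all genes were called, and the 1 called for SEF1-VP16 against WT in YPD, where 9.15% were called. In YPD PEX18 was also lower in sef1 than in WT (−0.36 ± 0.093, adjusted p = 0.0473), a difference within 1 slide that stayed under the fold minimum.

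In YPGly the PEX18 levels of the strains overlapped, at −0.52, −1.09, −0.99 and −0.96 in SEF1-VP16, −0.81, −0.82, −0.79 and −0.81 in sef1 and −0.56, −0.72, −0.43 and −0.96 in WT. SEF1-VP16 against sef1 was −0.085 ± 0.11 (adjusted p = 0.603, 95% interval −0.33 to 0.16) and SEF1-VP16 against WT was −0.22 ± 0.14 (adjusted p = 0.496, 95% interval −0.54 to 0.096). Limma called 0 of the 3 testable receptors in each of these comparisons, with 0 at an unadjusted p below 0.05 and 0 by the methods' t-test, where 3.08% of all genes were called against sef1 and 1.1% against WT.

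PEX7, the PTS2 receptor that both co-receptors serve, showed no called difference between strains. In YPD its levels were −1.63, −1.69, −1.70 and −1.75 in SEF1-VP16, −1.66, −1.70, −1.52 and −1.55 in sef1 and −1.57, −1.55, −1.31 and −1.38 in WT. All SEF1-VP16 arrays were below those of WT but not below those of sef1. The difference of SEF1-VP16 against WT in YPD, −0.24 ± 0.069, passed the adjusted p alone (0.0172). In YPGly the levels ran from −1.05 to −0.95 in SEF1-VP16, from −1.17 to −0.97 in sef1 and from −0.98 to −0.84 in WT, and the 3 strain differences there ran from −0.14 to 0.048.

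PEX5, the PTS1 receptor, had no called strain difference either. Its levels in YPD were −1.40, −1.30, −1.47 and −1.41 in SEF1-VP16, −1.43, −1.40, −1.45 and −1.49 in sef1 and −1.25, −1.29, −1.33 and −1.28 in WT. The SEF1-VP16 arrays overlapped with those of both other strains, and the sef1 arrays lay below those of WT (difference −0.16 ± 0.047, adjusted p = 0.069). In YPGly they ran from −0.52 to −0.42 in SEF1-VP16, from −0.56 to −0.49 in sef1 and from −0.63 to −0.38 in WT. SEF1-VP16 against sef1 was 0.041 ± 0.054 in YPGly and 0.052 ± 0.048 in YPD, with 95% intervals of −0.079 to 0.16 and −0.054 to 0.16.

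**Figure D2:**
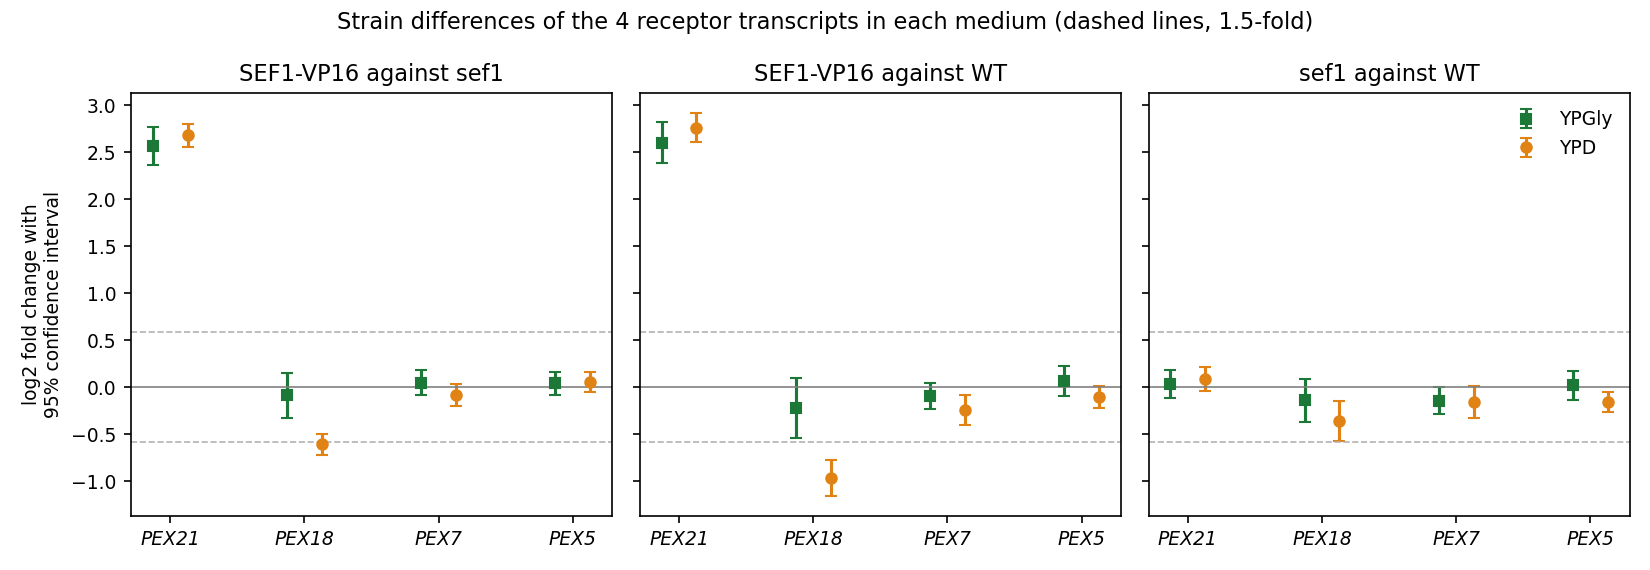
Log2 fold change (vertical axis) of the 4 receptor transcripts between strains in YPGly (squares) and YPD (circles), with 95% confidence intervals from limma over 8 arrays and dashed lines at 1.5-fold. PEX21 lies between 2.57 and 2.76 in the 4 comparisons with SEF1-VP16, and PEX18 in YPD lies at −0.61 against sef1 and −0.97 against WT. The sef1 against WT values of all 4 stay within the dashed lines. For PEX21, which was chosen by its rise in SEF1-VP16 over sef1, the intervals are a description with no test.

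All 4 receptor transcripts had higher levels in YPGly than in YPD in each strain, in comparisons that all crossed slides. PEX18 had the largest fold of the 4, with levels of −1.09 to −0.43 in YPGly and −4.30 to −3.15 in YPD over the strains. It was higher in YPGly than in YPD by 3.39 ± 0.11 in SEF1-VP16 (adjusted p = 6.19e-10), 2.87 ± 0.054 in sef1 (7.31-fold, adjusted p = 5.67e-12) and 2.65 ± 0.13 in WT (6.26-fold, adjusted p = 2.90e-08). PEX21 differed by 1.13 ± 0.095 in SEF1-VP16 (2.19-fold) and 1.24 ± 0.050 in sef1 (2.36-fold), both given with no test, and it rose by 1.29 ± 0.076 in WT (2.45-fold, adjusted p = 1.29e-07).

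PEX5 was higher in YPGly by 0.91 ± 0.055 in SEF1-VP16 (1.88-fold, adjusted p = 9.91e-08), 0.92 ± 0.046 in sef1 (1.89-fold, adjusted p = 1.15e-08) and 0.74 ± 0.073 in WT (1.67-fold, adjusted p = 6.63e-06). PEX7 rose by 0.68 ± 0.051 in SEF1-VP16 (1.6-fold, adjusted p = 5.14e-07), while its differences of 0.54 ± 0.061 in sef1 and 0.53 ± 0.080 in WT had adjusted p of 9.16e-06 and 0.00015 and stayed under the fold minimum. In all 3 strains the 4 arrays in YPGly lay above the 4 arrays in YPD for each of the receptors. The share of all genes without such overlap was not computed. Between the media limma gave an unadjusted p below 0.05 for 4526 of 5641 genes in SEF1-VP16, 4582 in sef1 and 4156 in WT. Among PEX18, PEX7 and PEX5 the receptors called were 3 of 3 in SEF1-VP16, where 41.4% of all genes were called, and 2 of 3 in sef1, where 38.8% were called. With PEX21 they were 3 of 4 in WT, where 39.2% were called.

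The dependence of the strain differences on the medium was tested over 16 arrays as an interaction, the value in YPGly minus that in YPD. For PEX18 the difference of SEF1-VP16 against WT was −0.22 in YPGly and −0.97 in YPD, a contrast of 0.74 ± 0.18 (adjusted p = 0.00499, 1.68-fold), which made it the 1 called of 3 testable receptors, where 10.6% of all genes were called. Against sef1 the same quantity was 0.52 ± 0.12 (adjusted p = 0.00418) and stayed under the fold minimum, so that limma called 0 of 3 receptors, with 1 at an unadjusted p below 0.05, where 8.62% of genes were called. With the array median as the scale it was 0.63, with quantile normalization 0.59 and without SEF1-VP16 replicate 2 in YPGly 0.59, all of which were called. For PEX21, with no test, the corresponding values were −0.16 ± 0.12 against WT and −0.11 ± 0.11 against sef1, small beside strain differences of 2.57 to 2.76. For sef1 against WT limma called 0 of the other 3 receptors, with 1 (PEX5, 0.18 ± 0.079) at an unadjusted p below 0.05, where 0.886% of genes were called.

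The order of the 6 groups was not the same for both co-receptors. PEX21 was highest in SEF1-VP16 in YPGly (0.97 ± 0.19, SD, n = 4) and next in SEF1-VP16 in YPD (−0.16 ± 0.11), followed by sef1 in YPGly (−1.60 ± 0.063), WT in YPGly (−1.63 ± 0.093), sef1 in YPD (−2.84 ± 0.034) and WT in YPD (−2.92 ± 0.089). Neighbours in this order overlapped only between sef1 and WT of the same medium. PEX18 had all 3 YPGly groups on top with overlapping arrays, at −0.89 ± 0.25 in SEF1-VP16, −0.81 ± 0.013 in sef1 and −0.67 ± 0.23 in WT. Its YPD groups stood at −4.28 ± 0.022 in SEF1-VP16, −3.68 ± 0.088 in sef1 and −3.32 ± 0.19 in WT, of which only sef1 and WT overlapped. The means of PEX7 spanned 0.77 and those of PEX5 0.96 over the groups, and in both genes the only gap between neighbours without overlap was that between the media. On the slide that held both, glucose-grown SEF1-VP16 cells had the higher PEX21 level, with a mean of −0.16 against −1.63 in glycerol-grown WT cells.

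Over the 24 arrays, which share 3 strains and 2 media, PEX18, PEX7 and PEX5 correlated with each other with r of 0.932 to 0.969, and PEX21 with each of them with r of 0.281 to 0.441. After the group means were removed, r between the receptors ran from −0.28 to 0.40. The transcripts most like PEX21 were ISA1, which encodes a mitochondrial iron-sulfur cluster assembly protein (r = 0.991), ERG29 (r = 0.976) and MIX17 (r = 0.976), and the 100th most alike had r = 0.691. Those most like PEX18 were the transketolase gene TKL2, the external NADH dehydrogenase gene NDE2 and YBR116C (r = 0.996 each), those most like PEX7 were the succinate dehydrogenase gene SDH2 (r = 0.972), MBR1 (r = 0.971) and UBC5 (r = 0.97), and those most like PEX5 were the carnitine carrier gene CRC1 (r = 0.99), STL1, a glycerol transporter gene (r = 0.989), and YIG1 (r = 0.989). For these 3 receptors the 100th most alike still had r of 0.952 to 0.984.

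The 2 genes that flank PEX21 were looked at after their values were seen. KEL2 differed between SEF1-VP16 and sef1 by 0.094 ± 0.079 in YPGly and −0.086 ± 0.049 in YPD. PFK1, a phosphofructokinase gene, differed by −0.14 ± 0.097 in YPGly and −0.13 ± 0.082 in YPD. None of these 4 differences passed an adjusted p of 0.05.

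The import pathway around the receptors was followed in 53 further genes, all of which were tested. Of the 25 PEX genes outside the 4 receptors, SEF1-VP16 against sef1 called 1 higher and 0 lower in YPGly and 0 in either direction in YPD, and SEF1-VP16 against WT gave the same counts. The 1 of 25 in YPGly was 4%, beside 3.08% of all genes against sef1 and 1.1% against WT. Their median difference against sef1 was 0.083 in YPGly and −0.081 in YPD, beside −0.014 and −0.0011 over all genes tested. The gene called in YPGly was PEX9, a further PTS1 receptor of restricted cargo range. Its levels in YPGly were −3.73, −3.50, −3.19 and −3.39 in SEF1-VP16, −4.92, −4.90, −5.05 and −4.94 in sef1 and −4.54, −4.28, −4.35 and −4.17 in WT, with no overlap between the strains. PEX9 was higher in SEF1-VP16 than in sef1 by 1.5 ± 0.10 (adjusted p = 8.29e-06) and than in WT by 0.88 ± 0.12 (adjusted p = 0.00334), and lower in sef1 than in WT (−0.62 ± 0.083, adjusted p = 0.00513). In YPD PEX9 was near the background, with mean intensities of 38.6 to 46.2, so that it passed the filter only through YPGly. Its YPD differences against sef1 and WT, −0.42 ± 0.30 and −0.088 ± 0.11, rest on those low values.

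None of the 4 docking and translocation genes (PEX8, PEX13, PEX14, PEX17) or the 12 genes for peroxisome size, number and inheritance was called by limma for SEF1-VP16 against sef1 or WT in either medium. The largest differences against sef1 among them were those of PEX11 in YPGly (0.47 ± 0.069, adjusted p = 0.00145) and of PEX29 in YPD (−0.43 ± 0.048, adjusted p = 7.65e-05). PEX25, whose product acts in peroxisome growth, stood at −0.28, −0.19, −0.19 and −0.16 in SEF1-VP16 in YPD, against −0.59, −0.59, −0.33 and −0.49 in sef1. These groups of PEX25 did not overlap, and their difference of 0.29 was under the fold minimum.

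The cargo genes moved in different directions. Of the PTS2 cargo, POT1, the beta-oxidation thiolase, was higher in YPGly in SEF1-VP16 than in sef1, with levels of 3.15, 3.00, 3.09 and 3.14 in SEF1-VP16 and 2.37, 2.16, 2.43 and 2.38 in sef1, a difference of 0.76 ± 0.073 (adjusted p = 0.000102). The WT levels of 2.84, 2.94, 2.98 and 2.70 lay between those strains, and neither SEF1-VP16 against WT (0.23 ± 0.077, adjusted p = 0.185) nor sef1 against WT (−0.53 ± 0.085, adjusted p = 0.0107) was called. In YPD POT1 was lowest in SEF1-VP16, at −3.55, −3.52, −3.64 and −3.68. Its YPD levels were −3.23, −3.00, −3.19 and −3.31 in sef1 and −2.31, −2.48, −2.51 and −2.67 in WT. SEF1-VP16 was below WT there (−1.10 ± 0.078, adjusted p = 9.76e-06), and so was sef1 (−0.69 ± 0.089, adjusted p = 0.00618). The glycerol phosphate dehydrogenase gene GPD1 and the nicotinamidase gene PNC1, whose import has been tied to Pex21, were called in no strain comparison, and SEF1-VP16 against sef1 was 0.012 ± 0.077 for GPD1 and 0.015 ± 0.15 for PNC1 in YPGly, and −0.28 ± 0.053 and −0.33 ± 0.13 in YPD.

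Of the 20 genes for PTS1 and other Pex5 cargo, 6 were called higher and 1 lower for SEF1-VP16 against sef1 in YPGly (35%, beside 3.08% of all genes), and 3 higher and 0 lower in YPD (15%, beside 3.14%). The gene called in both media was AAT2, an aspartate aminotransferase gene, with differences of 1.42 ± 0.073 in YPGly and 1.40 ± 0.097 in YPD. In YPGly the lipase gene LPX1 (1.02 ± 0.098) and the beta-oxidation genes DCI1 (1.11 ± 0.16), POX1 (0.77 ± 0.11), FOX2 (0.77 ± 0.086) and SPS19 (0.69 ± 0.079) were higher too, and PCS60 (−1.13 ± 0.14) was lower. In YPD the glyoxylate cycle genes MLS1 (1.35 ± 0.12) and CIT2 (1.26 ± 0.10) were the other calls. SEF1-VP16 against WT called 3 higher and 1 lower of these 20 in YPGly (20%, beside 1.1% of all genes) and 4 higher and 2 lower in YPD (30%, beside 9.15%), where CTA1, the catalase gene, and CAT2, the carnitine acetyltransferase gene, were lower, at −0.70 ± 0.063 for CTA1 and −0.72 ± 0.062 for CAT2. The median over these 20 genes for SEF1-VP16 against sef1 was 0.46 in YPGly and −0.14 in YPD.

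**Figure D3:**
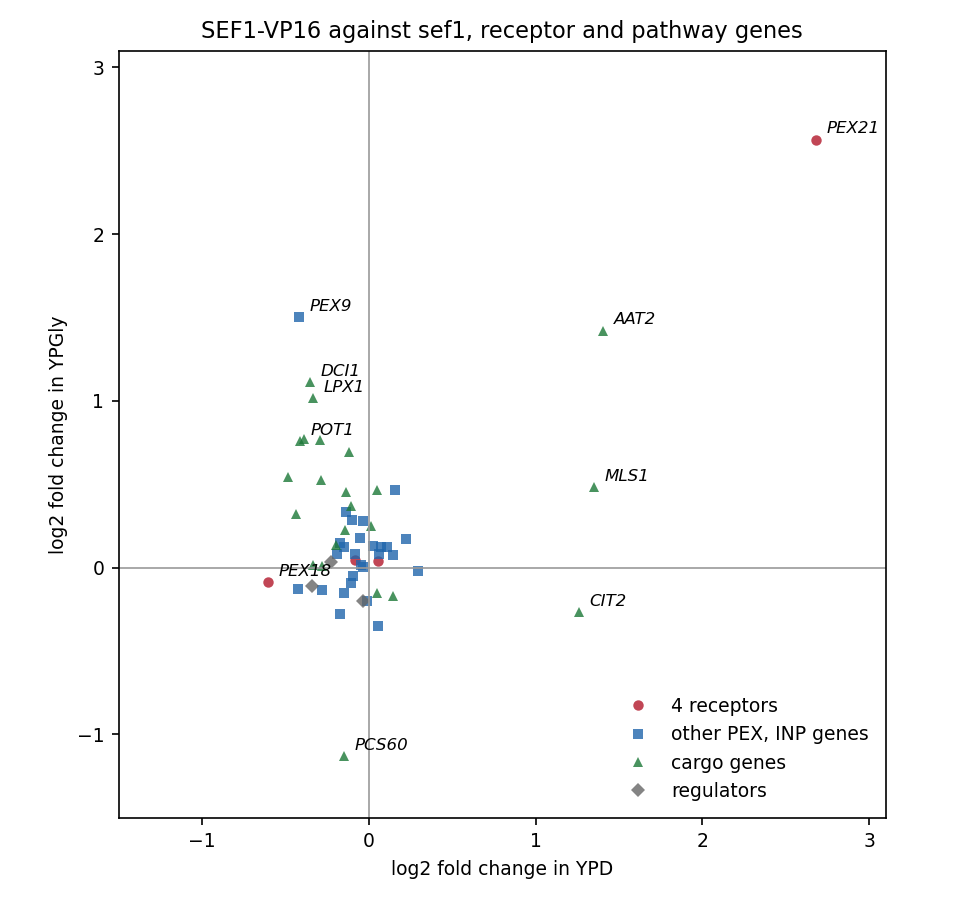
Log2 fold change of SEF1-VP16 against sef1 in YPD (horizontal axis) and in YPGly (vertical axis) for the 4 receptor genes (circles), the other PEX and INP genes (squares), the cargo genes (triangles) and the regulators (diamonds), each point 1 gene. PEX21, which was chosen on these values, lies at 2.68 and 2.57, AAT2 at 1.40 and 1.42, PEX9 at −0.42 (from YPD intensities under 200) and 1.5, and PEX18 at −0.61 and −0.085.

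Between the media, the genes for PTS1 and other Pex5 cargo had the higher share of calls and the other PEX genes a share near that of all genes. Of the 25 PEX genes outside the receptors 48% were called in SEF1-VP16, 36% in sef1 and 44% in WT, beside 41.4%, 38.8% and 39.2% of all genes in these strains, and of those 20 cargo genes 85%, 85% and 90%. Of the 53 pathway genes 31 were called higher and 2 lower in YPGly than in YPD in SEF1-VP16, 28 and 2 in sef1 and 30 and 3 in WT, with medians of 0.71, 0.66 and 0.67 beside −0.048, −0.017 and 0.0086 over all genes tested. The PTS1 and other Pex5 cargo had medians of 3.65 in SEF1-VP16, 3.09 in sef1 and 3.01 in WT. In WT the acyl-CoA oxidase gene POX1 was higher by 7.05 ± 0.077, MLS1 by 6.45 ± 0.12 and CTA1 by 6.04 ± 0.10. LYS1, a lysine biosynthesis gene, and NPY1, an NADH diphosphatase gene, were called lower in all 3 strains.

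Among the PTS2 cargo POT1 alone was called, higher by 6.69 ± 0.059 in SEF1-VP16, 5.52 ± 0.080 in sef1 and 5.36 ± 0.094 in WT, whereas GPD1 was at 0.10 ± 0.060, −0.19 ± 0.071 and −0.14 ± 0.074 in the same strains. PEX9 is given without a fold between the media, since its mean intensities were 873 in SEF1-VP16, 325.5 in sef1 and 498 in WT in YPGly but under the minimum of 200 in all YPD groups. PEX11, whose product acts in peroxisome proliferation, was higher by 2.57 ± 0.066, 2.26 ± 0.059 and 2.34 ± 0.067. Of the rest of the import machinery PEX14 (0.71 in SEF1-VP16, 0.66 in sef1, 0.62 in WT), PEX4 and PEX6 were called higher in all 3 strains, and PEX2 was lower in WT (−0.73 ± 0.096). Of the transcriptional regulators of this pathway, ADR1 was higher by 2.17 ± 0.11 in SEF1-VP16, 1.91 ± 0.077 in sef1 and 1.53 ± 0.11 in WT, PIP2 by 1.05 ± 0.060, 0.82 ± 0.066 and 0.75 ± 0.081, and OAF1 was not called in any strain.

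**Figure D4:**
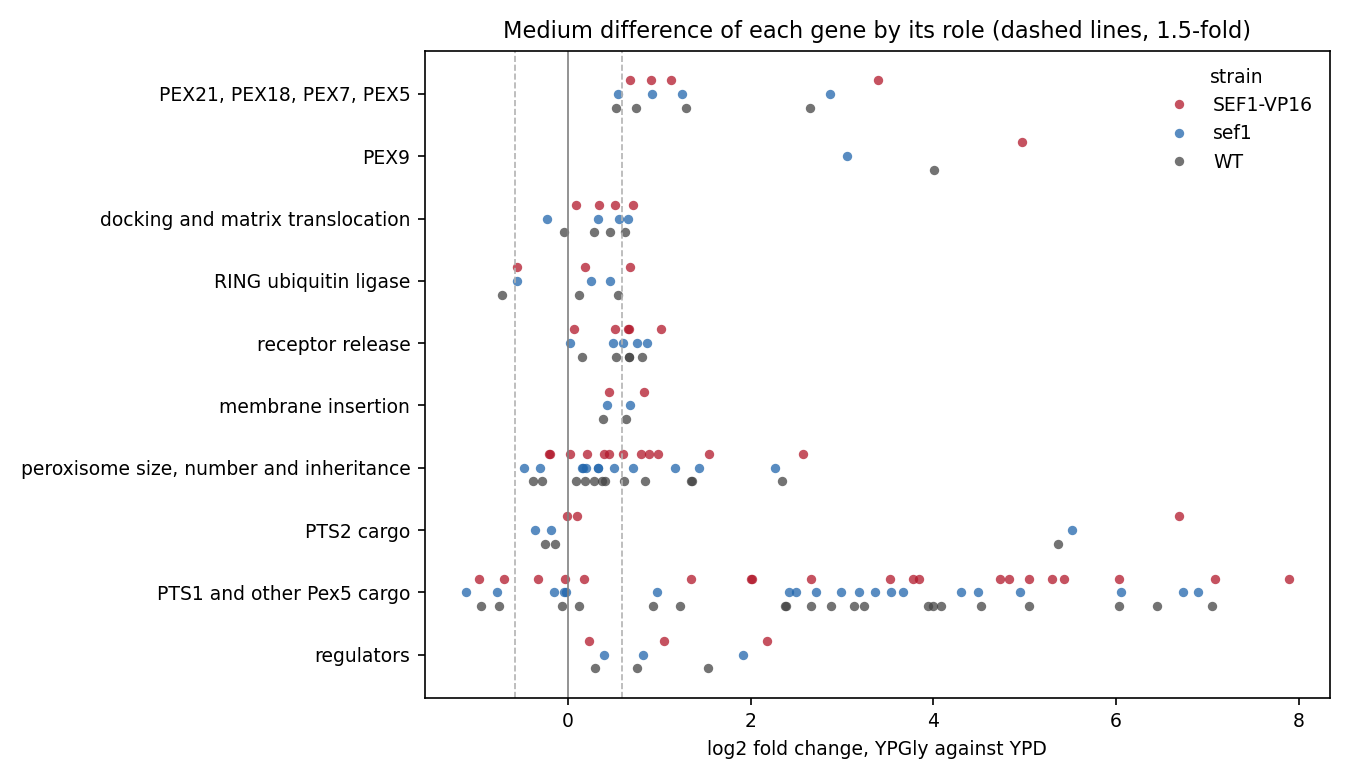
Log2 fold change of YPGly against YPD (horizontal axis) for the 4 receptor genes and the 53 pathway genes, grouped by role (rows), with 1 point per gene in SEF1-VP16 (upper row of points), sef1 (middle) and WT (lower) and dashed lines at 1.5-fold. The PEX9 points rest on YPD intensities under 200. The 4 receptors run from 0.53 to 3.39, with PEX18 as the rightmost point in each strain, and the cargo genes reach higher values, POX1 7.05 in WT.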

How the data were processed

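The authors hybridised 24 one-colour arrays and deposited 1 scanner table per array. These deposited intensities, 1 per spot, came from Agilent Feature Extraction 10.5.1.1 per the file headers and had been background-corrected by that software, so the number of arrays limits the precision. A second deposited table gave log2 values, which equalled the mean log2 intensity of a probe minus a constant per array (largest departure 2.48e-06) and served as an alternative. Replicates are biological per the labels.

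Control spots (536 of 13048) and 164 spots flagged as outliers were left out, the 2 spots of a probe were averaged on the log2 scale, and the array's 75th percentile was subtracted. Probes with a mean intensity of 200 in at least 1 group were tested (5641 of 6256). Comparisons used limma 3.58.1 in R 4.3.3 (lmFit, eBayes) over the 8 arrays of both groups, or 16 for the dependence on the medium, with Benjamini-Hochberg adjustment over all probes tested. The study's methods used an unpaired t-test. The scripts were tested on simulated data. Genes were matched by locus tag, and 5756 of 6256 probes had a match in the RefSeq gene table. The headers name the genome build sacCer1, which differs from the reference, so no coordinates are printed.

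The members and lists were chosen with earlier results of these data known. Named are the 4 members, every pathway gene called in a comparison with up to 4 others per list of the largest fold change, SEF1, and the 3 probes most correlated with each member. Some pathway genes are not reported here. Alternatives covered the scaling (array median, quantile), normexp background correction (on the median rather than the mean signal), the authors' table, the intensity filter, flagged spots, the fold minimum, the methods' t-test, a fit over all arrays, the replicate block, the slide and each replicate left out.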

Additional observations from a re-analysis of the deposited data

Results flagged for a closer look

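In SEF1-VP16 in YPGly the PEX21 level of replicate 1 lay apart from the other 3 arrays, at 1.25 against 0.91 for the nearest, a gap of 0.877 of the range of the group. The PEX7 level of the same array also lay apart (−0.95 against −1.03 for the nearest, 0.86 of the range). Both flags fell on the array with the lowest 75th percentile of all arrays, 5320 intensity units. These were 2 of 24 groups of 4 arrays examined for the receptors, and chance marks about 1 in 20. Without this array the PEX21 difference of SEF1-VP16 against sef1 in YPGly was 2.47. The cause was not tested.

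Strain differences that depended on the medium, tested as an interaction, were the other reason for a closer look. The values are signed contrasts, the difference in YPGly minus that in YPD. A positive contrast may be a larger rise, a smaller fall or a change of sign. For SEF1-VP16 against WT the contrast of PEX18 was 0.744, with SEF1-VP16 further below WT in YPD than in YPGly. For SEF1-VP16 against sef1 the contrast was positive for DCI1 (1.47), LPX1 (1.35), POT1 (1.18), POX1 (1.16), FOX2 (1.06), CTA1 (1.03), ECI1 (0.815), SPS19 (0.81), CAT2 (0.754) and FAA2 (0.59), and negative for CIT2 (−1.52), PCS60 (−0.982) and MLS1 (−0.865). For SEF1-VP16 against WT the contrast was positive for LPX1 (1.45), POT1 (1.33), CTA1 (1.05), CAT2 (0.97), DCI1 (0.889), POX1 (0.841), SPS19 (0.778), FOX2 (0.732), ADR1 (0.641) and ECI1 (0.641), and negative for STR3 (−1.26), CIT2 (−1.11) and PCS60 (−0.661). Both sets use the same SEF1-VP16 arrays. With each replicate left out in turn, STR3 in YPD was above WT by 1.16 to 1.53 in SEF1-VP16 and by 1.02 to 1.38 in sef1. For SEF1-VP16 against sef1 in YPD, STR3 then ran from 0.025 to 0.31. The STR3 contrast of sef1 against WT ran from −1.11 to −0.74 in the same way, and it was not called with all replicates. PEX9 gave 1.92 against sef1 and 0.972 against WT, but its YPD intensities of 38.6 to 46.2 lay near the background and it passed the filter only through YPGly, so these values have no reliable size. In these contrasts the medium and the slide cannot be told apart.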

How the results depend on the processing

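The 48 values of the receptors kept their direction, and their call where one was made, with the authors' table, normexp, no intensity filter, flagged spots kept and 1 fit over all arrays. So did the 36 with the methods' t-test. The constant of the authors' table lay within −0.014 to 0.00284 of the array's 75th percentile, and dropping the filter leaves each fold change as it was. These 2 settings could therefore hardly differ. With a fold minimum of 2, PEX18 alone among PEX18, PEX7 and PEX5 stayed called for YPGly against YPD in SEF1-VP16. The count of receptors called then fell to 0 for SEF1-VP16 against sef1 and against WT in YPD, and to 0 for the dependence of SEF1-VP16 against WT on the medium. With no fold minimum it was 2 for SEF1-VP16 against WT in YPD and 1 for sef1 against WT in YPD. The dependence of SEF1-VP16 against sef1 gave 1 with no fold minimum, the array median or quantile scaling. Leaving out each replicate gave 0 to 1 for SEF1-VP16 against sef1 in YPD and 0 to 1 for its dependence on the medium.

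The slide as a term (for the media chosen after seeing the data) gives 1 difference common to both media. For SEF1-VP16 against sef1 it equals the difference in YPGly, the medium in which both strains shared a slide, so it holds no measurement of that pair from YPD, and for SEF1-VP16 against WT it adds the difference of sef1 against WT in YPD to that value. It left 0 receptors called for SEF1-VP16 against sef1 and against WT in YPD, and PEX7 was called at 0.66 for YPGly against YPD in sef1 and WT. For SEF1-VP16 against sef1 in YPD its values were 1.5 for PEX9, 0.76 for POT1, 1.02 for LPX1, 0.77 for FOX2, 0.77 for POX1, −0.27 for CIT2, 0.69 for SPS19 and 1.11 for DCI1, all of opposite sign to the separate fit. For SEF1-VP16 against WT in YPD the same held for PEX9 (1.83), POT1 (0.073), LPX1 (1.01), FOX2 (0.64), CTA1 (0.32), POX1 (0.71), CIT2 (−0.39), DCI1 (1.13), PCS60 (−0.96) and CAT2 (0.031), and for sef1 against WT in YPGly for PEX9 (0.33). This term and the methods' t-test were not run for the dependence on the medium.

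With the replicate block PEX18 was at −0.61 for SEF1-VP16 against sef1 in YPD (adjusted p = 0.000199), and no call of a receptor changed. Replicates share only a number: same-number correlations ran from −0.44 to 0.54, and 0 of 9 comparisons had every pair above 0.1.

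Over all genes the count called ran, with a fold minimum of 2 and with none, from 33 to 2488 for SEF1-VP16 against sef1 in YPD (177 at 1.5-fold), 52 to 1282 in YPGly (174), 114 to 2716 for SEF1-VP16 against WT in YPD (516) and 31 to 103 in YPGly (62, and 173 with the slide), 6 to 460 for sef1 against WT in YPD (38) and 9 to 226 in YPGly (45), 1144 to 4482 (2334), 1032 to 4502 (2188) and 1010 to 4039 (2210) for the media in SEF1-VP16, sef1 and WT.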
